A study of Mus musculus with 4 samples.

Results

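Death receptors and caspases carry out programmed cell death. Here 8 genes of these and related proteins were followed by symbol in the deposited count table: Fas, Tnfrsf10b, Eda2r, Tnfrsf1a, Perp, Ei24, Apaf1 and Casp8. Casp8 is the only caspase gene among them, and Perp, Ei24 and Apaf1 encode neither a receptor nor a caspase. All 8 of these, out of 47937 genes in the table, passed the filter on low counts that left 16240 genes for testing. In the extrinsic route, ligands of the tumour necrosis factor (TNF) family bind receptors at the cell surface, adaptors such as FADD gather on the receptors' death domains, and caspase-8 is activated there. In the intrinsic route, cytochrome c released from mitochondria assembles APAF1 into the apoptosome, which activates caspase-9. Both routes end in the executioner caspases, and several of the 8 genes are textbook targets of the stress-activated transcription factor p53.

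Total RNA came from wild-type mouse embryonic fibroblasts (MEFs), a cell line derived from the connective tissue of embryos, which were left untreated or exposed to 50 µM genistein for 24 h. Genistein is a plant isoflavone that inhibits tyrosine kinases and acts on DNA topoisomerase II. Each group held 2 libraries, and the libraries had 28591958 to 31464284 counts over genes and repeats. The labels do not say that the 2 libraries of a group were separate cultures, and do not say whether the untreated cells received solvent. The p-values therefore measure only the spread between libraries of a group, which is estimated mainly from other genes and may be technical.

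Promoter sequence was read for the 8 genes first. Of these, 6 had an entry in the RefSeq promoter table (GRCm38.p6), and Tnfrsf10b and Perp had none. The 250 bases before the RefSeq start are shown for the 4 matched genes that passed every threshold below. These are the genes on which the results turn. Capitals mark matches, on either strand, to the GGGCGG box, the TATAAA box, CCAAT, the E-box CACGTG, the AP-1 motif TGANTCA and the p53 half-site.
Fas, chr19:34290409-34290658, plus strand: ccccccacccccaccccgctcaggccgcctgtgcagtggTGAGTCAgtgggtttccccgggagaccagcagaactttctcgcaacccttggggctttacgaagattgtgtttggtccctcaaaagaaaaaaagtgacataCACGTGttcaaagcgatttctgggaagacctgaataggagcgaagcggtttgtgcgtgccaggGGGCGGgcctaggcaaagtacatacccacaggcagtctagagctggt
Eda2r, chrX:97377210-97377459, minus strand: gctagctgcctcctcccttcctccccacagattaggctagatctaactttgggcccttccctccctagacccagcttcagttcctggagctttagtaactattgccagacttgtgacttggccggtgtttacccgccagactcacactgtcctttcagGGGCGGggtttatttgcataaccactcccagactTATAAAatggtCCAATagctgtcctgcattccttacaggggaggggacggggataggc
Ei24, chr9:36797335-36797584, minus strand: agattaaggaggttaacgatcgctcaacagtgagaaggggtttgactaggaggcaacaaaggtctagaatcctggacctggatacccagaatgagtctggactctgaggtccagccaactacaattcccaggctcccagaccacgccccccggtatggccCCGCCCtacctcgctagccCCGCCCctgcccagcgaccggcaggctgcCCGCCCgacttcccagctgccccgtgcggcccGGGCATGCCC
Apaf1, chr10:91082744-91082993, minus strand: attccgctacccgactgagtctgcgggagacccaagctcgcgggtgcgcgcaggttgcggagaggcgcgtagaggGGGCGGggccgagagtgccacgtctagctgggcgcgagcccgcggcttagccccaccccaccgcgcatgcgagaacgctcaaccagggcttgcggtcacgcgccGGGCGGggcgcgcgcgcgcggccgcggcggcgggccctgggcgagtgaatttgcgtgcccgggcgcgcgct
The Ei24 window ended in a p53 half-site, GGGCATGCCC, in the last 10 bases before the RefSeq start. The annotated Ei24 gene begins at 36797393 on the minus strand, inside this window, so the half-site lies within the annotated gene. The Apaf1 and Eda2r windows also run past the annotated gene starts, at 91082770 and 97377216. A half-site occurred in 7.13% of 32851 promoters of the same length. No half-site was found in the Fas, Eda2r or Apaf1 windows, which says only that these letters were not in these 250 bases. A GGGCGG box was present in each of the 4 windows, and in 32.7% of all promoters. The Eda2r window also held a TATAAA box (12.4% of all promoters) 58 to 53 bases before the start and a CCAAT (33.8%) 47 to 43 bases before it. The Fas window held a CACGTG (6.02%) and a TGAGTCA, the form of TGANTCA (6.75%) found there. GC content ranged from 53.2% in Eda2r to 75.6% in Apaf1, where 42 CG dinucleotides were counted. In the other matched windows, Casp8 had a GC content of 39.6% and a CCAAT, and Tnfrsf1a had 55.6% and none of the 6 motifs. Both windows lie inside the annotated gene, before an internal RefSeq start. The Casp8 window is chr1:58802252-58802501 in a gene that begins at 58795374. That of Tnfrsf1a is chr6:125349473-125349722 in a gene that begins at 125349362. Neither window shows the bases before the annotated gene start. Each match is a description of the letters and not of a bound site.

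Most of the 8 genes rose with genistein. By the quasi-likelihood test of edgeR, adjusted by Benjamini-Hochberg over every gene and repeat tested, 5 genes (Fas, Eda2r, Perp, Ei24 and Apaf1) passed all thresholds in the higher direction. The thresholds were an adjusted p under 0.05, a log2 fold change beyond 1 in either direction, and a normalised count that averaged more than 100 over the libraries. The normalised count is the read count after scaling for library size. Of all genes tested, 3.92% passed these thresholds in the higher direction and 4.16% in the lower direction, where none of the 8 genes lay. By the adjusted p alone, 7 of the 8 were higher and 1, Casp8, was lower. The corresponding shares of all genes were 33.5% and 38.2%, so that a small change past the p threshold was common in these libraries. In all 8 genes the untreated and genistein libraries did not overlap, which was also true of 85.3% of all genes. The median log2 fold change was 1.19 over the 8 genes and -0.03 over all genes tested. The 8 genes were chosen with earlier results of these data known, so these comparisons describe the list and do not test it.

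**Figure D1:**
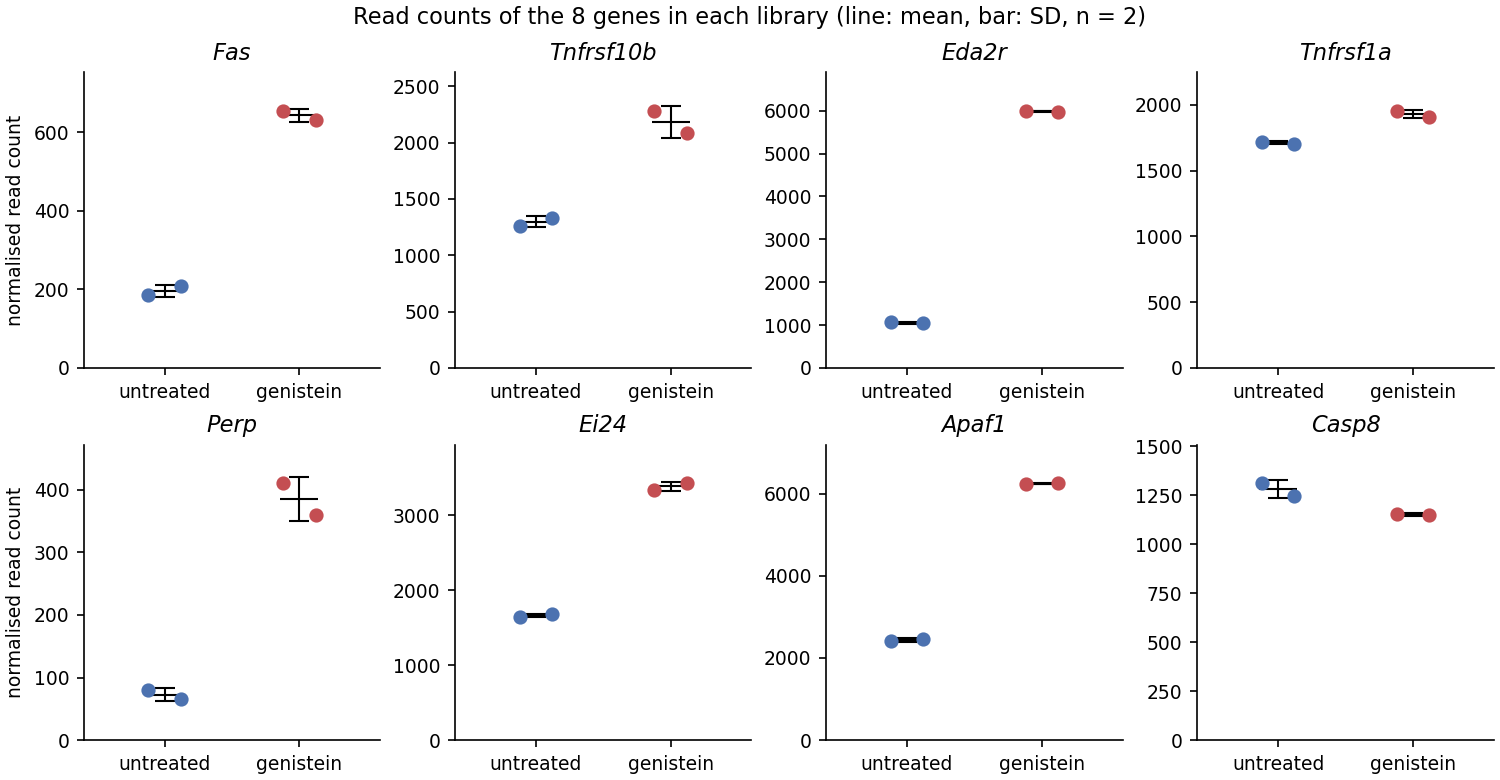
Normalised read counts of the 8 genes (vertical axis, from 0, a separate scale for each gene) in the 2 untreated and 2 genistein libraries; each point is a library, the line is the mean and the bar is the SD. In 7 genes both genistein libraries lie above both untreated ones, and in Casp8 they lie below.

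Among the receptors, Eda2r changed most. It encodes the ectodysplasin A2 receptor (XEDAR), a TNF receptor family member without a death domain that has been linked to p53-dependent death. Eda2r (X, 97333840 to 97377216, minus strand, 5891 bases of exon) was at 1071 and 1036 normalised counts in untreated cells and at 5998 and 5969.9 after genistein. The genistein libraries were far above the untreated ones and differed little from each other. The means were 1054 ± 24.3 and 5984 ± 19.5 (SD, n = 2), a 5.68-fold rise. Its log2 fold change of 2.51 (standard error 0.04, adjusted p = 1.6e-17, edgeR) placed it 154th among the 16240 genes ordered from the largest rise.

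Fas encodes the receptor of FAS ligand and carries a death domain. Fas (chromosome 19, 34290666 to 34327772, plus strand, 2062 bases of exon) had normalised counts of 185.8 and 207.5 in untreated cells and 654.5 and 631.6 after genistein. The libraries of the groups were well apart. The mean went from 197 ± 15.3 to 643 ± 16.2 (SD, n = 2), which is 3.27-fold (log2 fold change 1.71, standard error 0.08, adjusted p = 1.6e-11, edgeR).

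Tnfrsf10b encodes the mouse receptor of the ligand TRAIL. Tnfrsf10b (chromosome 14, 69767472 to 69784411, plus strand, 5451 bases of exon) was at 1263 and 1335 in untreated cells and at 2282 and 2084 after genistein. Its genistein libraries were further from each other than those of Fas, Eda2r and Tnfrsf1a, and both were above the untreated pair. It rose 1.68-fold, from 1299 ± 51.1 to 2183 ± 140.2 (SD, n = 2). The log2 fold change of 0.75 (standard error 0.05, adjusted p = 1.1e-09, edgeR) was under the fold threshold.

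Tnfrsf1a encodes TNF receptor 1, the main receptor for TNF on most cells. Tnfrsf1a (chromosome 6, 125349362 to 125362484, plus strand, 2591 bases of exon) was at 1719 and 1706 in untreated cells and at 1955 and 1908 after genistein. The pairs were apart but near each other. The 1.13-fold rise from 1712 ± 9.65 to 1932 ± 33.3 (SD, n = 2) corresponded to a log2 fold change of 0.17 (standard error 0.04, adjusted p = 0.0012, edgeR), and with DESeq2 it did not pass the threshold (adjusted p = 0.055).

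Perp and Ei24 encode membrane proteins known as p53 targets. PERP is a tetraspan protein related to PMP22 and a component of desmosomes. Perp (chromosome 10, 18845020 to 18857073, plus strand, 1952 bases of exon) had the lowest counts of the 8 genes, with 79.9 and 65.6 in untreated cells and 410.7 and 360.3 after genistein. The rise was 5.28-fold, from 72.8 ± 10.1 to 386 ± 35.6 (SD, n = 2), with a log2 fold change of 2.40 (standard error 0.12, adjusted p = 4.7e-11, edgeR). Its standard error was the largest of the 8, and the groups did not overlap.

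Because PERP is a desmosome protein, the marker genes of epithelial cells were examined beside it. Of 11 such markers, 6 passed the filter. By the adjusted p, 1 was higher, the junction gene Jup (log2 fold change 0.63), and 5 were lower, beside 33.5% higher and 38.2% lower of all genes. Krt14, a keratin of basal epithelium, went from 711 and 668 to 114 and 100.2 (log2 fold change -2.68), and Krt18, Krt8, Trp63 and Pkp1 had log2 fold changes of -2.76, -1.74, -2.33 and -0.61. The summed level of the list was 3043 to 3099 in untreated and 3097 to 3158 in genistein libraries. Jup alone rose from 1834 and 1809 to 2846 and 2812, and the sum of the rest of the list went from 1265 and 1233 to 312 and 285. Epcam and Krt5 had 0 counts in all 4 libraries. The part of epithelial-like cells in the Perp result was not tested. In bulk samples, fewer cells of a type and less RNA per cell cannot be told apart.

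EI24 is a protein of the endoplasmic reticulum membrane that has been linked to autophagy. Ei24 (chromosome 9, 36779159 to 36797393, minus strand, 4868 bases of exon) was at 1650.3 and 1681 in untreated cells and at 3345 and 3432 after genistein. Both genistein libraries were well above the untreated ones. It rose 2.03-fold, from 1666 ± 21.9 to 3389 ± 61.9 (SD, n = 2), with a log2 fold change of 1.02 (standard error 0.04, adjusted p = 8.4e-13, edgeR). This lay just past the fold threshold, and testing against the threshold itself, or fitting with no filter on low counts, left 4 genes past all thresholds instead of 5. An antisense gene, Gm26787, overlaps 6.66% of the Ei24 exon bases and had 1 to 6 raw counts per library.

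Apaf1 and Casp8 stand at the points where the intrinsic and the extrinsic route activate their first caspase. Apaf1 (chromosome 10, 90989311 to 91082770, minus strand, 9028 bases of exon) had normalised counts of 2411 and 2472 in untreated cells and 6229 and 6255 after genistein. Apaf1 libraries of a group differed little. The rise was 2.56-fold, from 2442 ± 42.8 to 6242 ± 18.5 (SD, n = 2), with a log2 fold change of 1.35 (standard error 0.03, adjusted p = 5.8e-15, edgeR).

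Casp8 was the one gene of the 8 with lower counts after genistein. It encodes caspase-8, the initiator caspase that death receptors recruit. Casp8 (chromosome 1, 58795374 to 58847503, plus strand, 2893 bases of exon) was at 1313 and 1248 in untreated cells and at 1157 and 1148 after genistein. The pairs were apart, with a mean of 1280.4 ± 45.6 against 1152 ± 6.58 (SD, n = 2). Its log2 fold change was -0.15 (standard error 0.05, adjusted p = 0.012, edgeR). This call was lost with DESeq2, with scaling factors from genes alone, with genes fitted without repeats, with library totals, and without untreated replicate 1 (adjusted p = 0.091), with the sign kept each time.

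**Figure D2:**
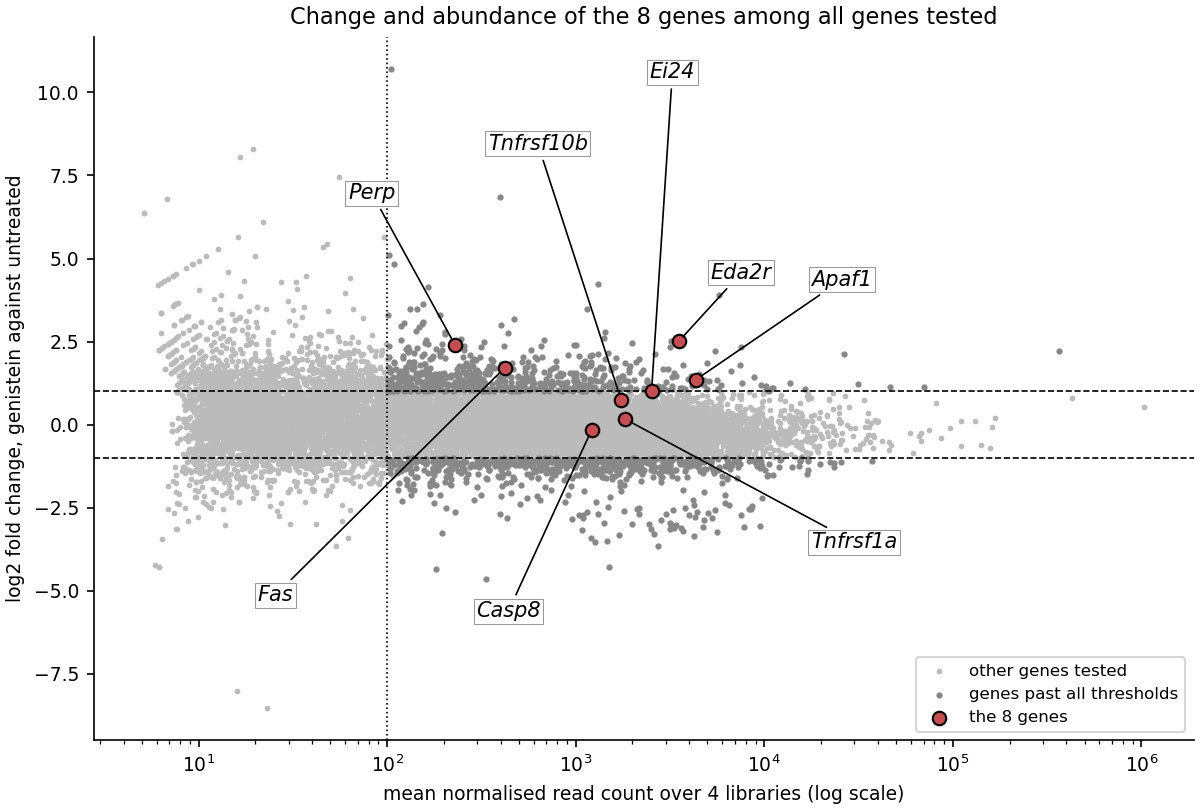
Log2 fold change of genistein against untreated (vertical axis) and mean normalised read count over 4 libraries (horizontal log axis) of the 16240 genes tested. Each point is a gene, dark grey points passed all thresholds, red points are the 8 genes, the dashed lines mark a log2 fold change of 1 and -1 and the dotted line marks a mean count of 100. Fas, Eda2r, Perp, Apaf1 and, narrowly, Ei24 lie above the upper line.

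Levels were compared between genes as normalised counts per kilobase of exon. In untreated cells the order from the highest was Tnfrsf1a (661), Casp8 (443), Ei24 (342), Apaf1 (270.5), Tnfrsf10b (238), Eda2r (179), Fas (95.4) and Perp (37.3). After genistein Eda2r led with 1016, followed by Tnfrsf1a (745), Ei24 (696), Apaf1 (691), Tnfrsf10b (401), Casp8 (398), Fas (312) and Perp (198). Eda2r thus moved from the sixth place to the first, and Fas and Perp kept the lowest places. The untreated libraries of neighbours in this order did not overlap. After genistein, Ei24 (687 and 705) overlapped Apaf1 (690.0 and 693), and Tnfrsf10b (419 and 382) overlapped Casp8 (400.0 and 397). Exon lengths came from a later GENCODE release than that used for counting, so these levels are approximate.

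**Figure D3:**
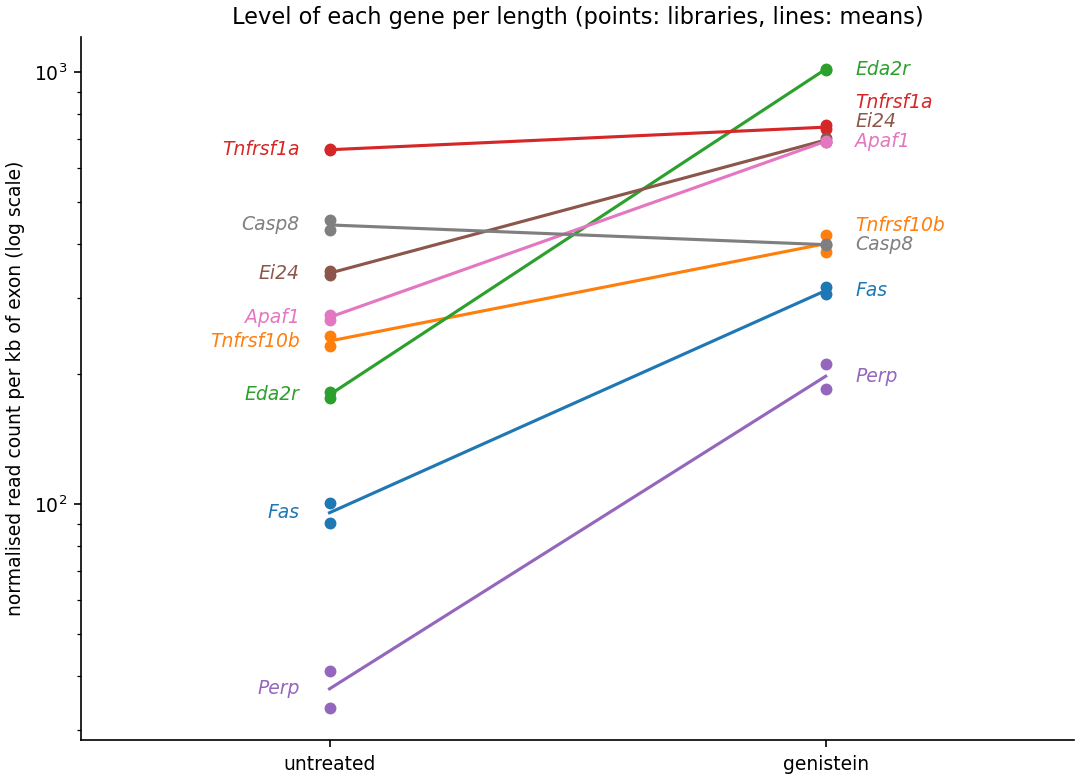
Normalised read counts per kilobase of exon (log axis) of the 8 genes in each untreated and genistein library. Each point is a library; Eda2r moves from a mean of 179 to 1016, above Tnfrsf1a, while Fas and Perp stay lowest.

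Ratios of RNA levels were taken between members, and between a member and the gene of a partner. They follow from the changes of the single genes. The per-kilobase ratio of Eda2r to Fas was 2.02 and 1.75 in untreated cells and 3.21 and 3.31 after genistein, and that of Tnfrsf1a to Tnfrsf10b was 2.86 and 2.69 against 1.80 and 1.93. The ratio of Fas to its adaptor gene Fadd went from 1.44 and 1.66 to 7.03 and 7.57. In the intrinsic route, the ratio of Apaf1 to Cycs, the gene of cytochrome c, was 0.587 and 0.608 in untreated cells and 3.29 and 3.36 after genistein. The ratio of Apaf1 to Casp9 was 4.59 and 4.78 against 8.08 and 8.2. The ratio of Cflar, an inhibitor that resembles caspase-8, to Casp8 was 0.239 and 0.264 against 0.416 and 0.405. In each of these ratios the groups did not overlap, which was also true of the counts of 85.3% of all genes. They were not tested.

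The wider pathway did not move in one direction. Of 93 other genes in lists of the death receptor and caspase pathway, 71 passed the filter. By the adjusted p alone, 21 were higher, 29 were lower and 21 did not pass (edgeR's quasi-likelihood test), beside 33.5% and 38.2% of all genes. The counts for each list below are also to be read beside these shares. Past all thresholds there were 3 of the 71 higher (Tnfrsf23, Pidd1 and Gsn) and 3 lower (Cycs, Htra2 and Kpnb1). Of all genes tested, 3.92% and 4.16% passed them in these directions, so these counts were near the shares of all genes. The number past all thresholds was 6 in the main fit. Among alternatives that kept every library, it was 5 with DESeq2, with RLE scaling factors or with no filter on low counts. It was 4 in a test against the fold threshold itself, and 7 with a mean count over 10. Fits that left out a library are not counted here. The median log2 fold change of the 71 was -0.05.

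**Figure D4:**
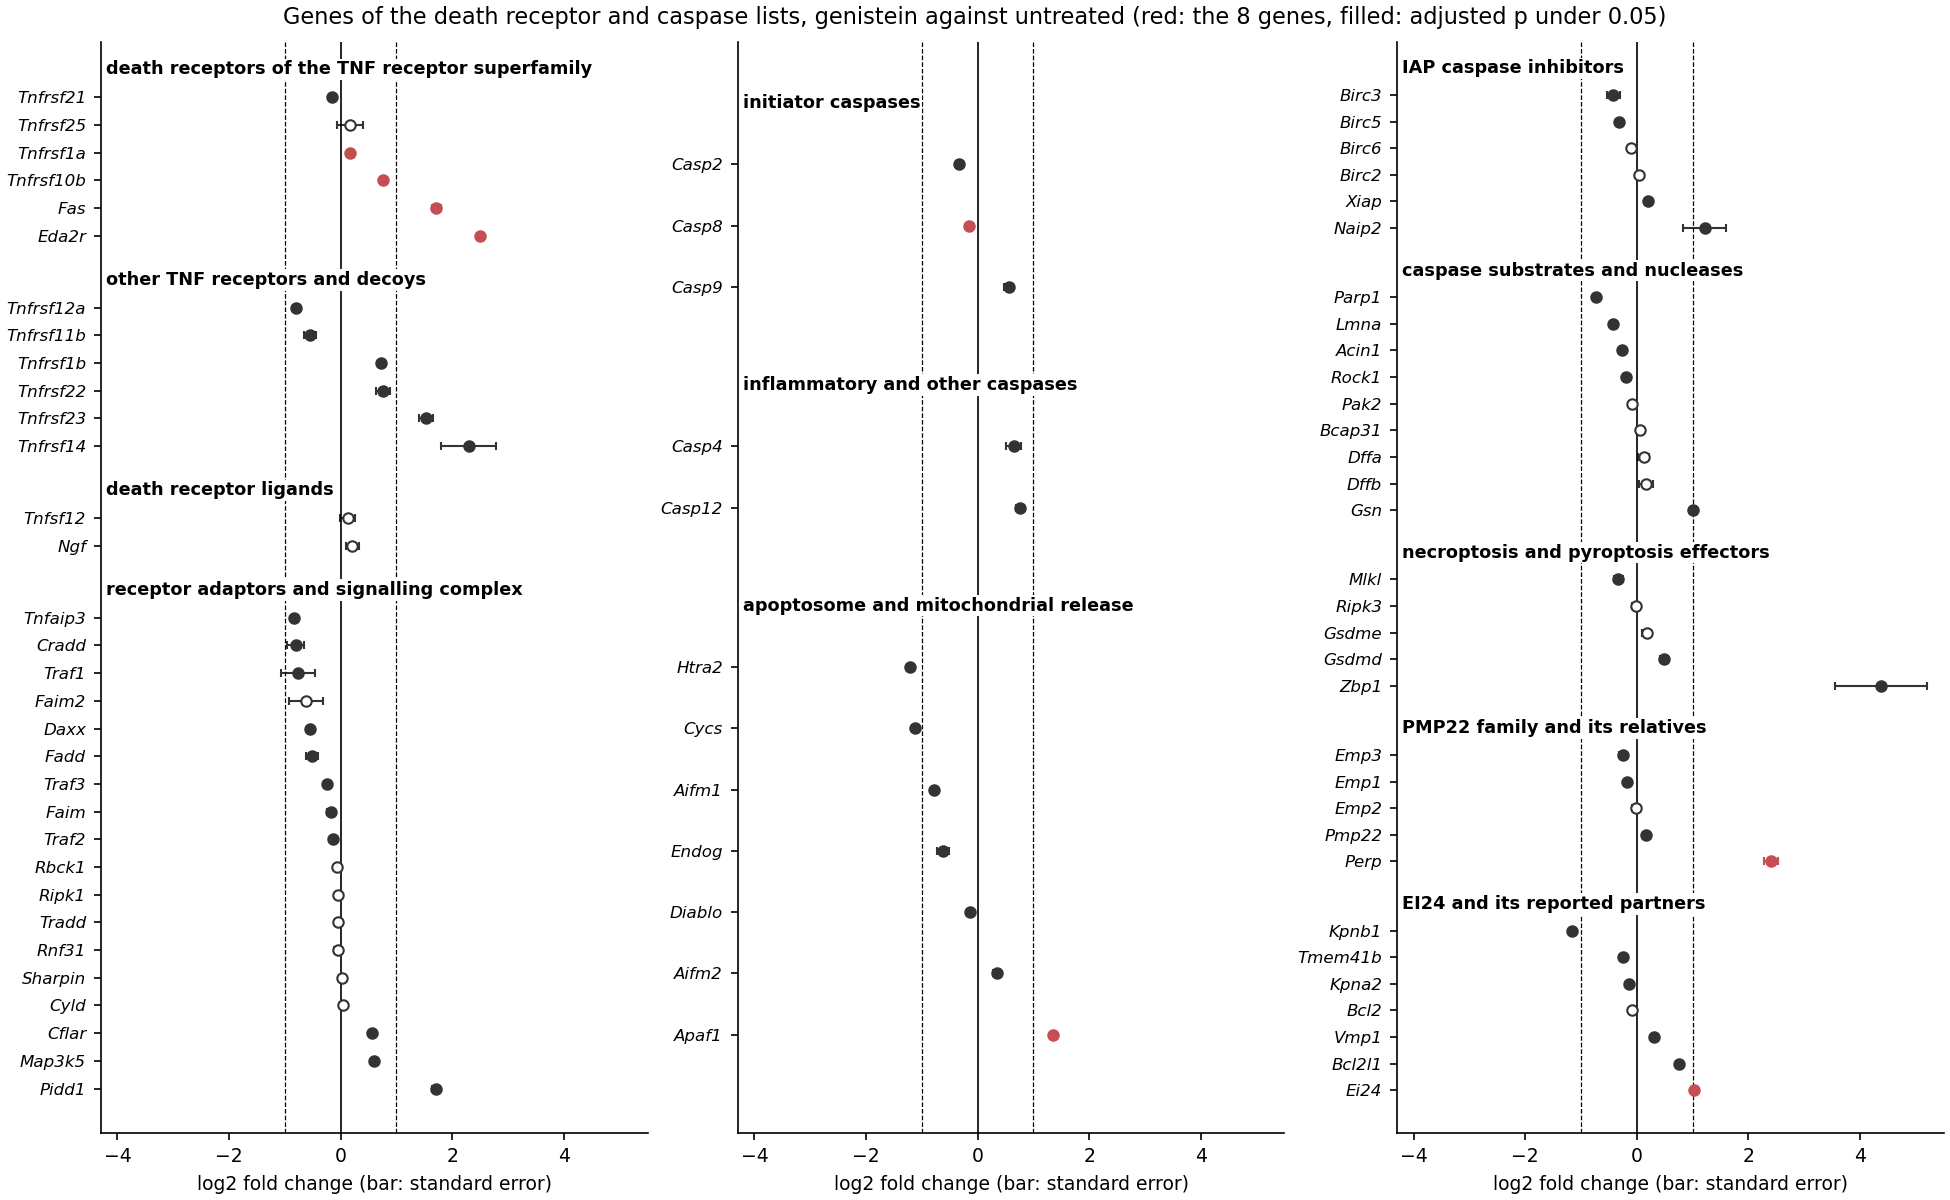
Log2 fold change with standard error (horizontal axis) of tested genes in 12 of the pathway lists, genistein against untreated. Red points are the 8 genes, filled points have an adjusted p under 0.05 and dashed lines mark a log2 fold change of 1 and -1. Most genes lie between the dashed lines, and Eda2r, Perp, Fas and Apaf1 stand to the right in their lists.

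The other receptors moved both ways. Of the remaining death receptors, 2 of 4 passed the filter, and Tnfrsf21 (death receptor 6) fell slightly, from 2291 and 2209 to 2035 and 1989 (log2 fold change -0.16, standard error 0.04, adjusted p = 0.0017, edgeR), a call lost with library totals. Of 8 other TNF receptors and decoys, 6 passed the filter, 4 were higher and 2 lower. The decoy receptor gene Tnfrsf23 was at 93.9 and 108 in untreated cells and at 319.8 and 261.1 after genistein (log2 fold change 1.53, standard error 0.13, adjusted p = 2.1e-08, edgeR). Its close paralog Tnfrsf22 had a log2 fold change of 0.76, and reads shared between the pair make both uncertain. Tnfrsf14, with 3 and 3 raw counts against 17 and 15, showed a log2 fold change of 2.29 (standard error 0.50, adjusted p = 0.00062). Tnfrsf12a, the receptor of TWEAK, fell from 3452 and 3281 to 1851 and 2029 (log2 fold change -0.80, standard error 0.04, adjusted p = 1.3e-10).

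The ligands of these receptors were at or near 0. Fasl had raw counts of 0, 2, 1 and 1 in untreated 1, untreated 2, genistein 1 and genistein 2. Tnf had 0, 0, 1 and 1, and Tnfsf10, the gene of TRAIL, had 0 in each library. A count of 0 allows up to 3 counts, or 0.0953 to 0.105 CPM in these libraries, for counting error only. No difference in a ligand was detectable at this depth. Of 10 ligand genes, 2 passed the filter and neither passed the test.

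Among 18 adaptors and signalling genes, all kept, 3 were higher, 8 lower and 7 did not pass, beside 33.5% higher and 38.2% lower of all genes. Fadd, whose protein links FAS to caspase-8, fell from 243.7 and 236.1 to 176.3 and 157.9 (log2 fold change -0.52, standard error 0.11, adjusted p = 0.00035, edgeR). Tradd, the adaptor of TNF receptor 1, had 867 and 816 against 810.2 and 815 (log2 fold change -0.05, adjusted p = 0.43, sign turned to 0.02 with library totals). Ripk1, the kinase of the same complex, had 1433 and 1357 against 1385 and 1304 (log2 fold change -0.05, adjusted p = 0.35), and it overlaps exons of Serpinb6a and Gm17084. Neither of these passed the test. Cflar, which lies beside Casp8 on chromosome 1 (58711508 to 58758884), rose from 1375 and 1442 to 2109.8 and 2037 (log2 fold change 0.56, standard error 0.04, adjusted p = 8.4e-09). Pidd1, a p53 target that assembles the caspase-2 platform, rose from 344.6 and 364.2 to 1231 and 1082 (log2 fold change 1.71, standard error 0.07, adjusted p = 5.2e-12). Its partners in that platform went the other way. Cradd fell from 103.9 and 97.4 to 59.1 and 55.7 (log2 fold change -0.81, adjusted p = 0.00027), and Casp2 from 1849 and 1822 to 1467 and 1454 (log2 fold change -0.33, adjusted p = 3e-06). Tnfaip3, a brake on TNF signalling, fell from 1854 and 1963 to 1136 and 1008 (log2 fold change -0.83, adjusted p = 1.1e-09).

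Among the caspases, 1 of the 2 other initiators (Casp9) was higher and 1 (Casp2) lower. Casp9, the caspase that the apoptosome activates, rose from 302.7 and 297.5 to 443.5 and 439.3 (log2 fold change 0.56, standard error 0.08, adjusted p = 7.1e-06, edgeR). Casp6, whose protein cleaves nuclear lamins, rose from 428.6 and 451 to 736 and 726 (log2 fold change 0.73, adjusted p = 2.6e-08). Of 4 inflammatory and other caspases, the 2 that passed the filter, Casp12 and Casp4, rose (log2 fold change 0.76 and 0.65).

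Most other genes of the apoptosome and of mitochondrial release were lower, whereas Apaf1 was higher. Of 7 others, 6 passed the filter, 1 was higher and 5 were lower, beside 33.5% higher and 38.2% lower of all genes. Cycs fell from 1548 and 1532 to 714.5 and 702.5 (log2 fold change -1.12, standard error 0.05, adjusted p = 1.1e-11, edgeR). Htra2, a mitochondrial protease, fell from 2086 and 2122 to 881 and 932 (log2 fold change -1.21, standard error 0.05, adjusted p = 1.5e-12), and it shares 25.6% of its exon bases with Aup1 and 18.2% with Loxl3 on the opposite strand. Aifm1, a flavoprotein of the mitochondrial intermembrane space, had a log2 fold change of -0.78. Endog, a mitochondrial nuclease, had -0.61 and shares 35.7% of its exon bases with Spout1 on the opposite strand. Diablo, whose protein binds IAPs, was at a log2 fold change of -0.14 (adjusted p = 0.022), a call lost under 6 of the alternatives. Diablo shares 21.5% of its exon bases with B3gnt4 on the opposite strand and 19.3% with Gm49027 on its own, so its counts are uncertain.

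Caspase inhibitors and substrates were mixed. Of 10 genes of inhibitors of apoptosis, 6 passed the filter, 2 were higher and 2 lower. Xiap, a direct inhibitor of caspases, rose from 2879 and 3011 to 3322 and 3424 (log2 fold change 0.20, standard error 0.04, adjusted p = 0.00017, edgeR). Naip2, of a multigene family whose members can share reads, had raw counts of 6 and 13 against 27 and 20 (log2 fold change 1.22, adjusted p = 0.01), and Birc3, a ubiquitin ligase of TNF signalling, was at a log2 fold change of -0.42 (adjusted p = 0.0048). Both calls were lost with DESeq2, that of Naip2 also without genistein replicate 1 (adjusted p = 0.0785) or untreated replicate 1 (adjusted p = 0.159), and that of Birc3 also without untreated replicate 2 (adjusted p = 0.0558). Of 9 substrates and nucleases, 1 was higher and 4 were lower, beside 33.5% higher and 38.2% lower of all genes. Gsn, the actin-severing gelsolin, rose from 7117 and 6897 to 14072 and 14124 (log2 fold change 1.01), which lay just past the fold threshold. Parp1, a DNA repair enzyme cleaved by caspases, had a log2 fold change of -0.73. Lmna, the lamin A/C gene, had -0.42. Of 7 necroptosis and pyroptosis genes, 5 passed the filter, 2 were higher and 1 lower. Gsdmd, a pore-forming gasdermin, had a log2 fold change of 0.49, and Zbp1, a nucleic acid sensor, had raw counts of 0 and 1 in untreated and 11 and 16 in genistein libraries. The ratio of the Zbp1 counts was 26.8, with an exact 95% interval of 4.42 to 1098 that covers counting error only.

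The relatives of Perp and the partners of Ei24 moved both ways. Of 5 relatives of Perp, 4 passed the filter, 1 was higher and 2 lower. Pmp22, a myelin protein of the same family, was at 1427 and 1408 against 1584 and 1579 (log2 fold change 0.16, adjusted p = 0.0044, edgeR), a call lost with DESeq2. Emp3 and Emp1, of the same family, had -0.24 and -0.18. The call of Emp3 was lost with DESeq2 (adjusted p = 0.0783), with library totals (adjusted p = 0.0509), without genistein replicate 1 (adjusted p = 0.0691) and without untreated replicate 1 (adjusted p = 0.114), and that of Emp1 with library totals (adjusted p = 0.0578). Of 6 reported partners of Ei24, 2 were higher and 3 lower. Bcl2l1, the survival gene of BCL-XL, had a log2 fold change of 0.75, and Kpnb1, the importin beta gene, had -1.16. Vmp1, an autophagy gene, had 0.31.

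For each of the 8 genes, the gene with the nearest pattern over the 4 libraries was found by the root mean square difference of log2 normalised counts, each centred on its untreated mean. The nearest genes were Zmat3 for Fas (difference 0.034), Rdh10 for Eda2r (0.029), Vnn1 for Perp (0.073), Dnase1l1 for Tnfrsf10b (0.0097) and Usp22 for Tnfrsf1a (0.0030). They were Smarca2 for Ei24 (0.012), Rnf169 for Apaf1 (0.011) and Vasn for Casp8 (0.0015). With 4 libraries in 2 groups, this measure mainly compared the size of the change.

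The labelled cell type was checked against its markers. Of 9 fibroblast markers, 8 passed the filter, of which 7 were lower and 1 (Fn1, log2 fold change 0.20) higher by the adjusted p, with a median log2 fold change of -0.28. Of all genes, 38.2% were lower and 33.5% higher by the adjusted p alone. The largest falls among the fibroblast markers were in Pdgfrb (-0.73) and Col1a2 (-0.50). The summed fibroblast level was 426170 and 438298 in untreated and 408228 and 398408 in genistein libraries, a sum in which the rise of Fn1 is set against the falls of the others, and Thy1 had 0 counts in all 4. Of 9 immune cell markers, 2 passed the filter, and both rose, Csf1r (log2 fold change 1.46) and Cd68 (1.5). Csf1r shares 15.1% of its exon bases with Hmgxb3 on the opposite strand. The summed immune level was 196 to 212 in untreated and 565 to 580.0 in genistein libraries, and the other 7 markers did not pass the filter. Of these, Lyz2 had raw counts of 0 and 2 in untreated and 16 and 6 in genistein libraries, and Itgam had 0 and 0 against 5 and 4. Itgam shares 68.7% of its exon bases with Gm49368 on its own strand, so its counts are uncertain. Ptprc had 0 or 1 raw counts in each library, Cd79a had 2 and 1 against 0 and 0, and Adgre1 and Cd3e had 0 in all 4. Of 5 endothelial markers, Kdr alone passed the filter (log2 fold change 1.98). The summed endothelial level was 24.97 and 30.7 against 85.3 and 98.2, and the other 4 markers did not pass the filter. Pecam1 had raw counts of 2 and 6 against 8 and 9, Tek had 6 and 4 against 10 and 13, and Cdh5 and Emcn had 0 or 1 in each library. The part of such cells in the rise of Fas and the other receptors was not tested.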

How the data were processed

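Ribosomal RNA-depleted total RNA of 4 MEF libraries (2 untreated, 2 genistein, grouped by the labels) was sequenced with a stranded kit. The authors trimmed reads with Trim Galore, aligned them to mm10 with STAR and counted genes (GENCODE M9) and repeats with TEtranscripts. The deposited values were raw counts per gene and repeat. Which strand setting the counter used is not stated, so counts of genes with overlapping exons are uncertain. Larger overlaps are given beside the genes reported by name. Overlaps of genes that only enter list sums and counts are not given.

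Genes and repeats were fitted together (edgeR 4.0.16, R 4.3.3). Low counts were removed with filterByExpr, which kept 16240 genes and 1118 repeats, and libraries were scaled by TMM. An entry that named no gene held 0.00208% to 0.00314% of the counts and was left out. The test was the two-sided quasi-likelihood test of edgeR, with Benjamini-Hochberg adjustment over all 17358 entries, and the thresholds followed the study's methods. The model was checked on simulated counts. An exact permutation test of 2 libraries against 2 cannot go below p = 0.333. Reads had no molecular identifiers and may be PCR copies, so floors cover counting error only. The chi-square between replicates, per degree of freedom, was 5.91 in untreated and 13.3 in genistein, above sampling noise, so each was counted as a library.

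The 8 genes and the pathway and marker lists were chosen with earlier results of these data known. Text names were all 8 genes, a fixed set of pathway genes, those past all thresholds and up to 2 more per list with the largest change. Tnfrsf22 and the overlapping genes were named after their values were seen. Some genes of the lists are counted but not reported here by name. Coordinates and merged exon lengths came from a GENCODE annotation of GRCm38, the assembly of mm10, counted from 1. Alternatives were RLE factors, TMM from genes alone, library totals, no filter, DESeq2 1.42.0, genes without repeats, a replicate block, other thresholds and leaving out each library.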

Additional observations from a re-analysis of the deposited data

How the results depend on the processing

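Calls of 6 genes (Fas, Tnfrsf10b, Eda2r, Perp, Ei24 and Apaf1) kept their direction and their side of the adjusted p threshold under all 11 alternatives. The log2 fold change of Casp8 did not pass with DESeq2 (-0.18, adjusted p = 0.061), with TMM factors from genes alone (-0.11, adjusted p = 0.06), with genes fitted without repeats (-0.11, adjusted p = 0.062) or with library totals (-0.083, adjusted p = 0.17). When each library was left out it ranged from -0.19 to -0.12. Tnfrsf1a did not pass with DESeq2 (0.15). The median of the 8 genes was 1.17 with DESeq2, 1.23 with TMM factors from genes alone, 1.23 without repeats, 1.26 with library totals, 1.16 with no filter, and 1.17 to 1.21 when each library was left out. The median of all genes moved between -0.06 and 0.04 over these settings. The causes were not tested. Of the 50 other pathway genes past the adjusted p, 37 kept the call under every alternative and 13 lost it under at least 1, and none turned sign.

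The replicate numbers did not pair the samples (correlation of deviations -0.03 over the pairs), and with a replicate block Casp8 was at -0.15 and the calls of all 8 genes were the same. With 2 libraries a group, the spread is estimated mainly from other genes, and Perp and Fas rest on fewer reads than the rest.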
